A study of Homo sapiens with 6 samples.

Results

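The S100 genes encode small calcium-binding proteins of the EF-hand type, in which a short loop between helices holds a calcium ion. The proteins pair into dimers, and calcium opens a surface through which they bind partners such as annexins, myosin heavy chains and the kinase substrate AHNAK. Several are also released from cells and bind receptors such as AGER (also called RAGE), and in intestinal epithelium and its carcinomas they are best known for their links to cell motility and differentiation. The gene set held the 10 family members S100A2, S100A3, S100A4, S100A6, S100A10, S100A11, S100A13, S100A14, S100A16 and S100P, found by symbol among the 28491 genes counted. Of these, 9 passed the filter on low counts and were among the 16260 genes tested, and S100P did not. The set was chosen by measured values, because S100A2 was among the lower genes of the same comparison, and it was put together with results of these data known. The values of S100A2 are therefore given as a description without a test, and no count over the set is read as support for a direction.

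Poly(A) RNA came from HCT116, an established human colorectal carcinoma line, in 2 groups of 3 libraries each. All cells were transfected with Lipofectamine and collected after 48 h, and they received either a control plasmid (NC) or a plasmid carrying RBM47, an RNA-binding protein that acts on splicing and mRNA stability (RBM47-OE). For the RBM47 construct the labels name pcDNA3.1-3xFlag-RBM47, and DMEM and a NEBNext directional kit for culture and libraries, whereas the methods name pIRES-hrGFP-1a, a KC stranded kit and McCoy's 5A medium, and the promoter driving the transgene was not given in either. The labels do not say that the 3 libraries of a group came from separate cultures, so the p-values measure the spread between these samples, which may be technical. A transfected culture also holds cells that took up no plasmid, and because whole cultures were sequenced, fewer expressing cells and less RNA per cell cannot be told apart.

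Between 26792409 and 35477983 reads were counted on genes per library. RBM47 itself was counted 501, 797 and 552 times in the 3 NC libraries, against 41818, 38577 and 34858 times in RBM47-OE (values per library are given in the order of replicates 1, 2 and 3 throughout). The epithelial label held, since all 7 of 7 epithelial markers were present. Their summed FPKM (fragments scaled to exonic length and to the mapped fragments of the library) was 1999 to 2178 in NC and 1850 to 2099 in RBM47-OE. The summed FPKM was at most 0.36 for 4 measured leukocyte markers, 1.34 to 1.78 for 3 fibroblast markers and at most 0.16 for 3 endothelial markers. Levels in RBM47-OE also leaned on exonic GC content, with GC-rich genes lower. Over genes, Spearman's rho of a library's log2 difference from NC with exonic GC content ran from -0.162 to 0.127 in the NC libraries. It was -0.414 for RBM47-OE replicate 1, -0.586 for replicate 2 and -0.674 for replicate 3, so the fold change of each tested member is given with and without an offset for GC content. The trend coincided with the groups, and its source was not tested. The offset may therefore also take out part of a response to RBM47, and neither value is taken as the truer one.

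The S100 genes are small and lie close together. Of the 10 genes, 9 lay on chromosome 1, all on the minus strand, and S100P lay on the plus strand of chromosome 4. S100A10 and S100A11 formed a pair within chr1:151982915-152047907 (GRCh38), and the other 7 members on chromosome 1 fell within chr1:153357854-153632039, a run of 14 S100 genes. The coding sequences were 270 to 315 bases long, and 8 of the 10 canonical transcripts had 3 exons. Exonic lengths ran from 471 to 2216 bases with a median of 1012 over the tested members, against 4717 for all genes tested. Their exonic GC content had a median of 54.7%, and 8 of the 9 tested members lay above the median of 49.0% of all genes tested, S100A10 (46.4%) being the exception.

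The promoters of 4 members are shown. S100A2 was picked for its lower counts, and S100A10 had the most negative fold change among the other members. S100A14 was the only tested member without a negative fold change. S100A4 is shown for the TATA box in its promoter and not for a result. Each window runs from 250 bases before to 50 bases after the RefSeq start (GRCh38.p14), 5′ to 3′ on the gene's minus strand, and capitals mark a match to a motif. The windows are chr1:153565795-153566094 for S100A2, chr1:151993810-151994109 for S100A10, chr1:153545757-153546056 for S100A4 and chr1:153616276-153616575 for S100A14.
S100A2: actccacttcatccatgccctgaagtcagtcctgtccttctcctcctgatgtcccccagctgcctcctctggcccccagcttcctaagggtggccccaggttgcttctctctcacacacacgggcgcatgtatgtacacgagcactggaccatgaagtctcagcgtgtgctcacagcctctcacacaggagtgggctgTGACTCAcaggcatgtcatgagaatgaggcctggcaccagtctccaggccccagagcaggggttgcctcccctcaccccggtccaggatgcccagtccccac
S100A10: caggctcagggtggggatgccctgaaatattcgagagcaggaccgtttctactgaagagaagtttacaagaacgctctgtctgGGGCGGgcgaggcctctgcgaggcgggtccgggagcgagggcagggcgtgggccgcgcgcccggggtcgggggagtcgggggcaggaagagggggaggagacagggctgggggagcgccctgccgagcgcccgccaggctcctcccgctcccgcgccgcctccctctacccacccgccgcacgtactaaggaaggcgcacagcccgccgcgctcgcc
S100A4: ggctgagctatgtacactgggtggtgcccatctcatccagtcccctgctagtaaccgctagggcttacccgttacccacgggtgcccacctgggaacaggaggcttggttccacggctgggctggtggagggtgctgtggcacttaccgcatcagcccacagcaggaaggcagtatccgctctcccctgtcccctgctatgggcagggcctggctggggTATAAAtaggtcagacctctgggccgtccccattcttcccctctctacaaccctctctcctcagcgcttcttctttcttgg
S100A14: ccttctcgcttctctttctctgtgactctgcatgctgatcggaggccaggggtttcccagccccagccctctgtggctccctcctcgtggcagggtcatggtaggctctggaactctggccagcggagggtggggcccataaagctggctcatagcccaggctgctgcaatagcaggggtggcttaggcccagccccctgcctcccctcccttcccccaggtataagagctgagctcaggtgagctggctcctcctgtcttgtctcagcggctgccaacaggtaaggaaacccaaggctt

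The capitals in S100A2 spell an AP-1 site, the letters bound by Fos and Jun dimers, with its first base at -52 from the start. Those in S100A10 spell a GC box at -167, and those in S100A4 a TATA box at -31, while the window of S100A14 held none of the 4 motifs searched. As a TATA box the search took the letters TATAAA. The GC box was spelled as GGGCGG in this search. For the CCAAT box, its name gives the letters. The AP-1 site was written as TGANTCA, where N is any base. Both strands were read, and matches of 1 motif could overlap each other. All 10 members had a promoter entry. The AP-1 letters were in 2 of the 10 (S100A2 and S100A3), against 7.76% of all 27305 promoters of this length, and the TATA box in 2 (S100A4 and S100P), against 11.95%. The GC box was in 5 of the 10 against 44.6%, and the CCAAT box in 1 (S100A3) against 35.7%. S100A13 was among those with a GC box. Its RefSeq window (chr1:153634312-153634611) lay upstream of its GENCODE span (chr1:153618787-153631360) and did not touch it. A match describes the letters of the window and not a bound site.

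Transcript levels of the 10 genes covered more than 3 orders of magnitude in FPKM. For these genes the deposited FPKM were scaled to all annotated exonic bases, which exceed the canonical transcript to unlike degrees. S100A13 had 2216 exonic bases and a canonical transcript of 477, against 649 and 563 for S100A11. The order and shares below therefore depend on the length used. S100A6 (calcyclin) was by far the most abundant member, at 1027.5 ± 26.2 FPKM in NC and 885 ± 74.6 in RBM47-OE (mean ± SD, n = 3), above 99.9% of the 16368 protein-coding genes in the NC mean. It made up 51.5% of the summed FPKM of the 10 genes in NC and 52.1% in RBM47-OE. S100A11 followed in NC at 252 ± 8.79 FPKM, and then S100A14 (184 ± 2.83), S100A10 (179 ± 6.17) and S100A4 (174 ± 4.20), whose ranges overlapped with those of their neighbours in the order. S100A16 stood at 127 ± 0.356 FPKM and S100A13 at 39.2 ± 1.46. S100A2 (7.08 ± 0.510) and S100A3 (3.88 ± 0.448) were low, and S100P (0.280 ± 0.234) was close to 0.

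In RBM47-OE the order changed only among the middle members. S100A11 (197 ± 14.6 FPKM) and S100A14 (195 ± 12.7) now overlapped, and S100A4 (136 ± 12.8), S100A10 (128 ± 11.7) and S100A16 (111 ± 9.65) overlapped in turn. Without RBM47-OE replicate 3, S100A14 stood above S100A11, and leaving out any other library changed no place in either group. The 10 genes together summed to 1994 ± 28.0 FPKM in NC and 1698 ± 135 in RBM47-OE, a ratio of 0.851. Their share of all counts was 0.234% ± 0.0044 in NC and 0.200% ± 0.016 in RBM47-OE.

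**Figure D1:**
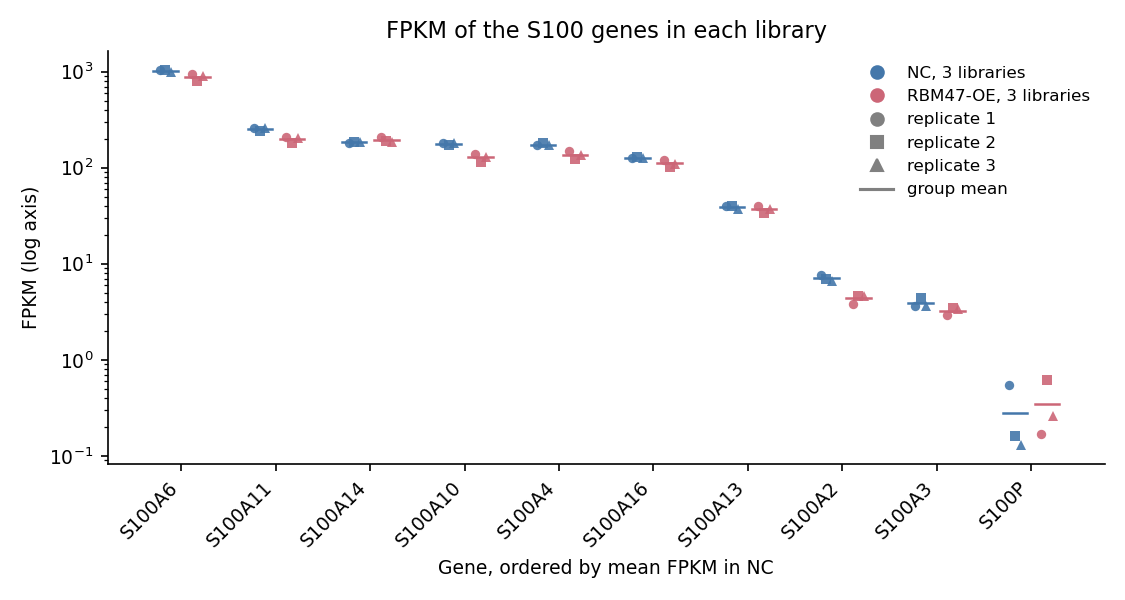
FPKM of the 10 S100 genes on a log axis, with 1 point per library (3 NC, 3 RBM47-OE, symbols for replicate numbers) and a line for each group mean. S100A6 lies at the top in both groups (1027.5 and 885 FPKM), 5 members lie between 111 and 252 FPKM in their group means, and S100P lies below 1 in every library.

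The comparison of RBM47-OE with NC asked which genes responded to the overexpressed protein. Of the 8 tested S100 genes other than S100A2, 5 were lower in RBM47-OE (S100A4, S100A6, S100A10, S100A11 and S100A16) and 0 were higher at an adjusted p under 0.05 in edgeR's quasi-likelihood test. None was higher with DESeq2 or at an unadjusted p under 0.05 in edgeR either, where S100A14 was the only member with a positive value. Across all genes tested 16.9% were lower and 19.1% higher by the same rule. The differences were small, with log2 fold changes of these 8 from -0.55 to 0.02 and a median of -0.31, where the median of all genes tested was 3.96e-05. All 3 RBM47-OE libraries lay below all 3 NC libraries for 6 of the 8, as they did for 23.4% of all genes tested, and S100A13 and S100A14 were the 2 members whose groups overlapped. The study's lower genes, from which S100A2 was picked, were set by a fold change over 1.5 (0.58 on the log2 scale) and an unadjusted p under 0.01, limits that 0.873% of all genes passed as lower genes in edgeR. By fold change alone, S100A2 (-0.77) lay inside and S100A10 (-0.55) just outside, and nothing is read from this.

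The offset for GC content changed these counts. With a GC offset, which takes out of every library its own smooth trend of gene level with GC content, 3 of the 8 were lower (S100A4, S100A10 and S100A11) and 1 was higher (S100A14). The same fit called 8.46% of all genes lower and 6.21% higher. The median log2 fold change of the 8 was then -0.10 and that of all genes 0.0029. Of the 9 tested members with S100A2, 8 moved up with the offset and 7 moved closer to 0, and S100A10, the member of lowest GC content, was the one that moved down. Because the offset is a curve of GC content, these directions follow from the GC content of each gene and are no separate result.

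**Figure D2:**
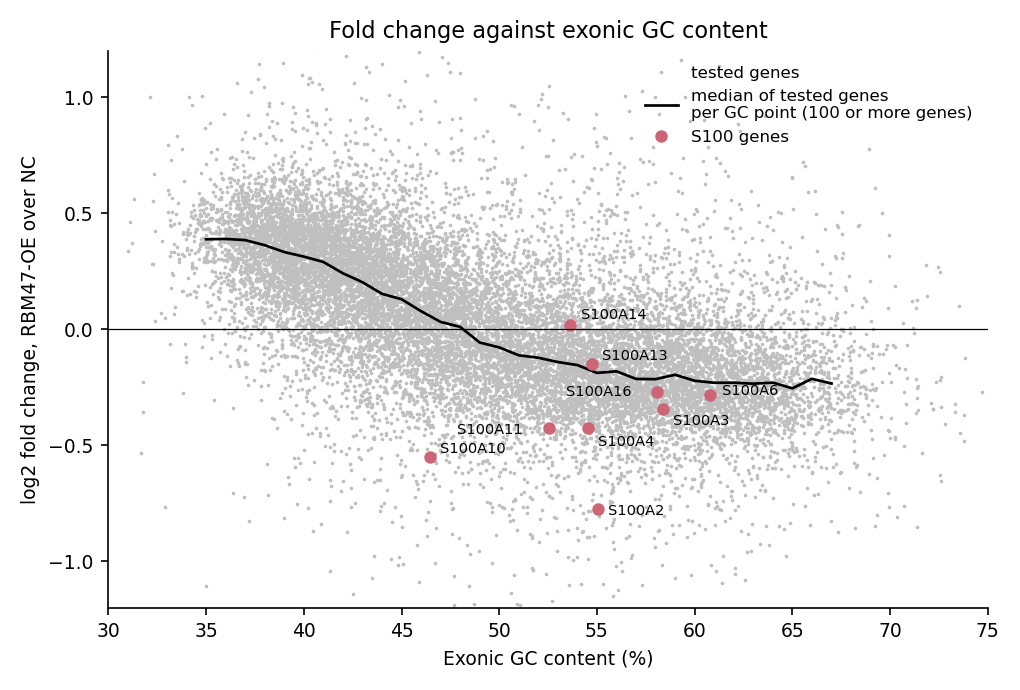
Log2 fold change of RBM47-OE over NC (edgeR, vertical axis) against exonic GC content in percent (horizontal axis), with grey points for all tested genes, a line for their median at each GC point with 100 or more genes, and red points for 9 S100 genes; 76 tested genes lie outside the axes. S100A10, S100A2, S100A4 and S100A11 sit furthest below the line, S100A14 above it, and S100A6, S100A16 and S100A13 close to it.

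S100A2 is found mainly in the nucleus of epithelial cells. NC libraries held 362, 431 and 342 counts of it, and RBM47-OE libraries 221, 245 and 231. In FPKM these were 7.64, 6.97 and 6.64 in NC and 3.83, 4.58 and 4.65 in RBM47-OE. Every RBM47-OE library lay below every NC library, and RBM47-OE replicate 1 was the lowest. The log2 fold change was -0.77 (standard error 0.12) without the GC offset and -0.59 (standard error 0.12) with it. Among the protein-coding genes the mean level of S100A2 stood above 71.7% in NC and above 59.6% in RBM47-OE. These values describe the gene for which the set was chosen.

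S100A10 and S100A11, best known for binding annexins A2 and A1, were both lower. S100A10 (p11) has lost the ability to bind calcium and joins with annexin A2 into a complex of 4 chains at the plasma membrane, where it takes up plasminogen. It stood at 183, 172 and 181 FPKM in NC, against 139, 115 and 129.6 in RBM47-OE. The groups did not overlap, and replicate 2 was the lowest. S100A10 fell by 0.55 on the log2 scale (SE 0.078, edgeR adjusted p = 3.2e-05; SE is the standard error) without the GC offset and by 0.60 (SE 0.070, edgeR adjusted p = 3.3e-05) with it. S100A11 (calgizzarin) stood at 259, 242 and 256 FPKM in NC and at 209, 181 and 202 in RBM47-OE. Again the groups did not overlap and replicate 2 was the lowest. S100A11 fell by 0.42 (SE 0.075, edgeR adjusted p = 1.9e-04), and by 0.29 with the GC offset (SE 0.061, edgeR adjusted p = 0.0036). For S100A11, 8 named processed pseudogenes were annotated, with 0 counts on them in the counts used here, so reads shared with a copy cannot be followed.

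ANXA2, annexin A2, is the partner of S100A10 and did not pass the test without the offset. It stood at 194, 185 and 174 FPKM in NC and at 186, 180.1 and 186 in RBM47-OE, and the groups overlapped. The log2 fold change of ANXA2 was -0.07 (SE 0.077, edgeR adjusted p = 0.50), and -0.25 with the GC offset (edgeR adjusted p = 0.016). The ratio of S100A10 to ANXA2 in FPKM, computed after the values of both were seen, was 0.945, 0.926 and 1.04 in NC and 0.746, 0.641 and 0.696 in RBM47-OE. All RBM47-OE libraries lay below all NC libraries, with means of 0.971 and 0.694. ANXA2 was scaled to 11574 exonic bases (canonical transcript 1554) and S100A10 to 1012 (canonical transcript 671). The ratio is therefore compared between groups only, and its size does not give the relative number of transcripts.

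S100A4 and S100A6 are the members most often linked to cell motility. S100A4 (metastasin) binds the heavy chain of non-muscle myosin, and S100A6 binds CACYBP, a part of a ubiquitin ligase. S100A4 stood at 171, 179 and 172 FPKM in NC and at 149.7, 124 and 135 in RBM47-OE, without overlap. It fell by 0.42 on the log2 scale (SE 0.078, edgeR adjusted p = 2.5e-04), and by 0.25 with the GC offset (SE 0.059, edgeR adjusted p = 0.0070). S100A6 had FPKM values of 1053, 1029 and 1001 in NC, against 956, 807 and 892 in RBM47-OE. Every RBM47-OE library lay below every NC library. S100A6 fell by 0.28 (SE 0.079, edgeR adjusted p = 0.0068), and its value was -0.07 with the GC offset (SE 0.064, edgeR adjusted p = 0.55). The call for S100A6 thus held without the offset and ended with it. It also ended with an offset for exonic length (-0.158, edgeR adjusted p = 0.105) and with limma on either FPKM scale (limma adjusted p = 0.064 and 0.060). The exonic GC content of S100A6 (60.8%) was the highest of the members.

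S100A14 and S100A16 are neighbours on chromosome 1 (chr1:153614255-153616986 and chr1:153606886-153613145) that are expressed in many epithelia. They stood apart from each other in RBM47-OE. S100A16 was at 127, 128 and 127 FPKM in NC and at 121, 102 and 109 in RBM47-OE, and the groups did not overlap. It fell by 0.27 on the log2 scale (SE 0.076, edgeR adjusted p = 0.0071), and its value was -0.07 with the GC offset (SE 0.057, edgeR adjusted p = 0.46), which ended the call. The S100A16 call also ended with an offset for exonic length (edgeR adjusted p = 0.084) and with limma on either FPKM scale (limma adjusted p = 0.054 and 0.053). S100A14 was at 181, 186 and 185 FPKM in NC and at 210.0, 189 and 187 in RBM47-OE. Its FPKM values did not overlap between the groups, but with the counts scaled by TMM factors they did, RBM47-OE replicate 1 lying above NC and replicates 2 and 3 slightly below. S100A14 had a log2 fold change of 0.02 (SE 0.073, edgeR adjusted p = 0.87), and it rose by 0.17 with the GC offset (SE 0.053, edgeR adjusted p = 0.033). That call remained in 2 of 6 repeats of the GC offset fit that left out a library. The ratio of S100A14 to S100A16 in FPKM, also computed after the values were seen, was 1.42, 1.46 and 1.45 in NC and 1.73, 1.85 and 1.72 in RBM47-OE, without overlap.

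**Figure D3:**
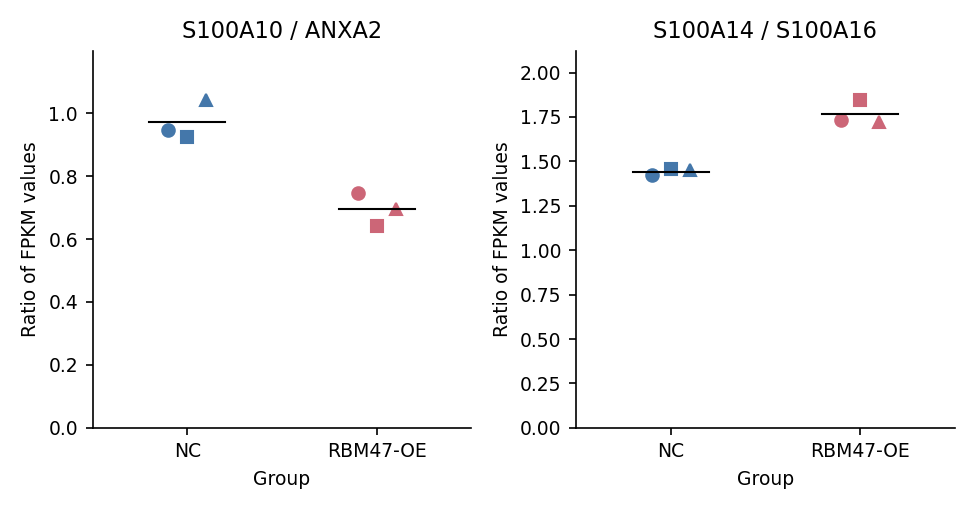
Ratios of FPKM values in each library, S100A10 to ANXA2 on the left and S100A14 to S100A16 on the right, with a line for the mean of 3 libraries and both vertical axes starting at 0. The mean of the first ratio is 0.971 in NC and 0.694 in RBM47-OE, that of the second 1.44 and 1.77, and neither pair of groups overlaps.

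Of the other tested members, S100A13 takes part in the release of FGF1 and IL1A, proteins that leave cells without a signal peptide. It was at 39.8, 40.4 and 37.6 FPKM in NC against 40.1, 33.6 and 37.5 in RBM47-OE, and the groups overlapped. The log2 fold change was -0.15 (SE 0.078, edgeR adjusted p = 0.14), and 0.02 with the GC offset (SE 0.061, edgeR adjusted p = 0.85), so no direction was resolved. S100A13 shared 235 exonic bases with S100A1 on the opposite strand and 536 with a lncRNA on the same strand that had 94 to 163 counts per library, and strand use in the counting was not given in the sources used here.

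S100A3, a zinc-binding member best known from the hair cuticle, was low, with 93, 148 and 102 counts in NC and 91, 100 and 91 in RBM47-OE. Per length this came to 3.61, 4.40 and 3.64 FPKM in NC, against 2.90, 3.43 and 3.37 in RBM47-OE. Although the groups did not overlap, the log2 fold change of -0.34 had an SE of 0.18 (edgeR adjusted p = 0.13), and it was -0.14 with the GC offset (SE 0.17, edgeR adjusted p = 0.66). S100A3 lies within the span of S100A4 on the same strand, and they share 0 exonic bases.

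S100P, which binds ezrin and is raised in several carcinomas, was close to background. Its counts were 8, 3 and 2 in NC and 3, 10 and 4 in RBM47-OE, below the filter, and it was not tested. The groups overlapped, and no fold change is given.

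Compared library by library, the members did not all order the RBM47-OE replicates in the same way. Relative to the NC mean of log2 CPM (counts scaled to library size with TMM factors), the 9 members had medians of -0.26, -0.45 and -0.30 in the 3 RBM47-OE libraries. Replicate 2 was the lowest of the 3 for 7 members, and replicate 1 was the nearest to NC or above it for the same number. S100A2 and S100A3 were the exceptions. For S100A2 the differences were -0.92, -0.73 and -0.67 in replicates 1, 2 and 3, and for S100A3 they were -0.44, -0.27 and -0.26, so that replicate 1 was the furthest from NC. For S100A10 they were -0.40, -0.74 and -0.53, and for S100A14 they were 0.15, -0.07 and -0.04.

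**Figure D4:**
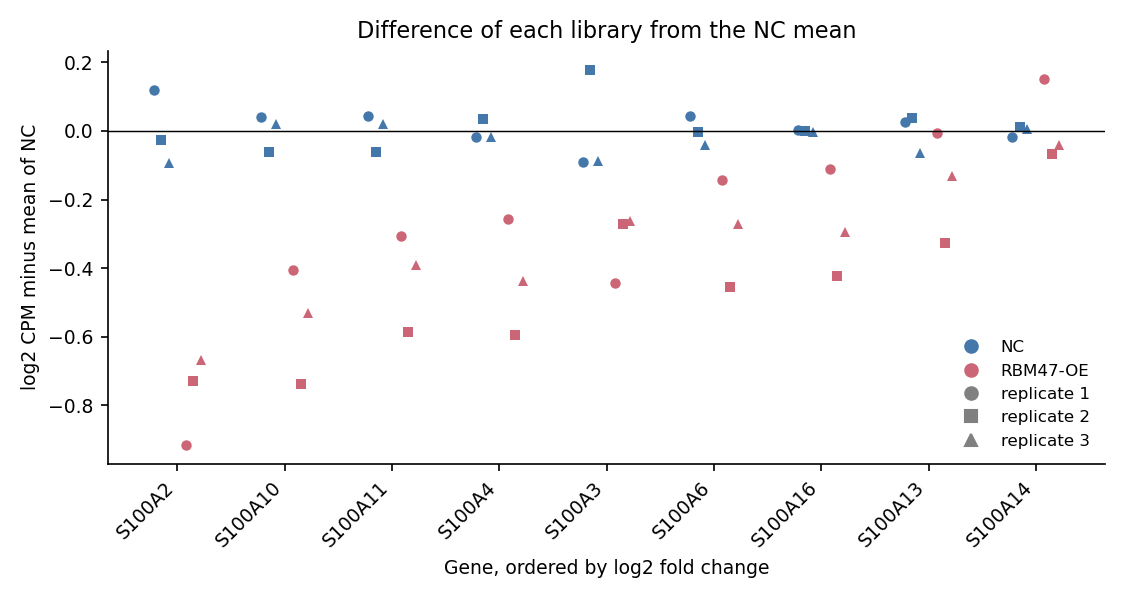
Difference in log2 CPM of each library from the mean of the 3 NC libraries, for the 9 tested S100 genes ordered by log2 fold change, with colours for NC and RBM47-OE and symbols for replicate numbers. RBM47-OE replicate 2 is the lowest point for 7 genes, replicate 1 for S100A2 (-0.92) and S100A3 (-0.44), and S100A13 and S100A14 are the genes whose groups overlap.

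**Figure D5:**
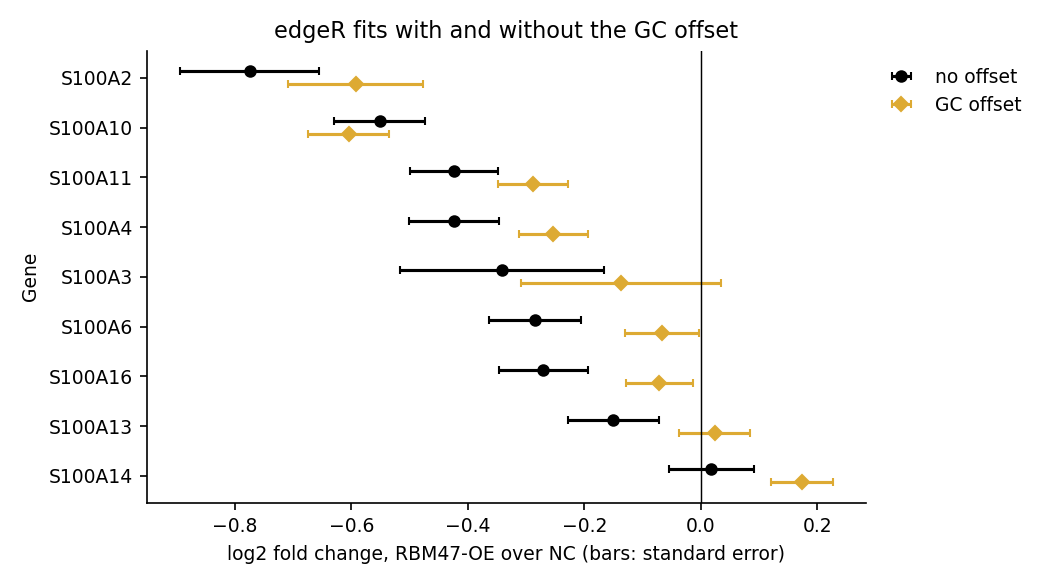
Log2 fold change of RBM47-OE over NC for 9 S100 genes from edgeR without an offset (black circles) and with the GC offset (yellow diamonds), with bars for 1 standard error. S100A10 stays between -0.60 and -0.55, S100A6 moves from -0.28 to -0.07, and S100A14 moves from 0.02 to 0.17.

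The proteins to which S100 proteins bind were read from lists of related genes. Annexins bind membranes in a calcium-dependent way and are the classical partners of S100A10, S100A11, S100A4 and S100A6. Of 13 listed annexins 10 were tested, of which 3 were higher and 2 lower, with a median log2 fold change of 0.07, where 19.1% of all genes were higher and 16.9% lower. ANXA1 rose by 0.49 (edgeR adjusted p = 2.1e-04), ANXA3 by 0.35 (edgeR adjusted p = 0.0045) and ANXA4 by 0.20 (edgeR adjusted p = 0.046). ANXA6 fell by 0.22 (edgeR adjusted p = 0.016) and ANXA11, a partner of S100A6, fell by 0.31 (edgeR adjusted p = 0.0014). With the GC offset ANXA1, ANXA3 and ANXA4 no longer passed, and 3 annexins were lower, ANXA2, ANXA5 (-0.24, edgeR adjusted p = 0.010) and ANXA11 (-0.17, edgeR adjusted p = 0.035), with a median of -0.02. Of all genes, that fit called 8.46% lower and 6.21% higher.

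Other binding partners went both ways, and of 18 tested (23 listed), 5 passed as higher and 3 as lower around a median of 0.08 (all genes: 19.1% higher, 16.9% lower). IL1A, an alarmin cytokine whose release S100A13 assists, had 3, 5 and 3 counts in NC and 16, 19 and 12 in RBM47-OE. It was low in every library but without overlap between groups, and it rose by 1.99 (SE 0.52, edgeR adjusted p = 0.0042); the study also picked it from these libraries. MYH10, a non-muscle myosin heavy chain, rose by 0.36 (edgeR adjusted p = 6.8e-04), as did IQGAP1, a scaffold of the actin cortex (0.36, edgeR adjusted p = 5.4e-04), and SYT1, a calcium sensor of vesicle release (0.36, edgeR adjusted p = 0.0014). SUGT1, a co-chaperone, rose by 0.30 (edgeR adjusted p = 0.011). The phosphatase gene PPP5C fell by 0.28 (edgeR adjusted p = 0.0033) and FKBP4, an HSP90 co-chaperone, by 0.34 (edgeR adjusted p = 0.0013). With the GC offset IL1A and MYH10 were still higher and FKBP4 still lower, and the median was 0.02. EZR, the partner of S100P, and CACYBP, AHNAK and MYH9, which bind S100A6, S100A10 and S100A4, did not pass the test, with log2 fold changes of -0.13, 0.15, 0.05 and -0.11, and of -0.02, -0.05, 0.11 and 0.08 with the GC offset.

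Of 8 listed receptors for released S100 proteins, 6 were tested, of which 1 was lower and 1 higher (all genes: 16.9% and 19.1%). AGER, the best known of them, was low, at 0.457 FPKM in NC and 0.507 in RBM47-OE, and its log2 fold change was 0.09 (edgeR adjusted p = 0.85) and 0.28 with the GC offset (edgeR adjusted p = 0.57). BSG (basigin) fell by 0.49 (edgeR adjusted p = 1.2e-04), and by 0.26 with the GC offset (edgeR adjusted p = 0.0050). ALCAM, an adhesion molecule of the immunoglobulin family, rose by 0.51 (edgeR adjusted p = 7.9e-05), and its value with the GC offset was 0.14 (edgeR adjusted p = 0.087). The median of the receptors was 0.02, and 0.13 with the offset.

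Calcium sensors and buffers of the EF-hand type outside the S100 family went in both directions. Of 29 tested of 39 listed, 11 were lower and 10 higher, with a median of 0.07, against 16.9% and 19.1% of all genes. With the GC offset 3 were lower and 4 higher, with a median of -0.02, against 8.46% and 6.21% of all genes. The lower genes with the smallest adjusted p were PEF1, a penta-EF-hand protein of the secretory pathway (-0.44), CAPNS1, the small subunit of calpains (-0.41), and NCS1, a neuronal calcium sensor (-0.35), with edgeR adjusted p-values of 1.4e-04, 3.0e-04 and 7.0e-04. The corresponding higher genes were NUCB2, a nucleobindin (0.56), CALB2, the buffer calretinin (0.38), and CALU, a calumenin of the endoplasmic reticulum (0.28), with edgeR adjusted p-values of 4.9e-05, 0.0015 and 0.0028. NCS1 and CALU did not pass with the GC offset, and the other 4 did.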

How the data were processed

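Poly(A) RNA of 3 NC and 3 RBM47-OE libraries of HCT116 cells was sequenced as paired-end reads, and all 6 libraries were used. After trimming, the authors used HISAT2 for alignment to GRCh38 and deposited the raw counts of unique alignments on each gene. They also deposited FPKM values, in which fragments are scaled to length and to the mapped fragments of a library. For the members, that length matched all annotated exonic bases of the gene. The counting tool, the annotation release and the use of strand are not given in the sources used here. Members and lists were chosen with earlier results of these data known, and the ratios after the values were seen.

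Counts were tested with edgeR 4.0.16 in R 4.3.3 (filterByExpr with a minimum count of 10 and a minimum total of 15, TMM factors, quasi-likelihood test on condition alone, Benjamini-Hochberg adjustment over 16260 genes). Depth was 26792409 to 35477983 counts per library, and S100A3 and S100P had the lowest counts. GC content and coordinates came from GENCODE 44, GC content for 16233 of the tested genes, and promoters from RefSeq (GRCh38.p14). Offsets were taken from a loess curve in every library (span 0.3). Log2 CPM used a prior count of 2. Alternatives were DESeq2 1.42.0 with and without the filter, RLE factors, library totals, no filter, limma 3.58.1 on log2 FPKM with a pseudocount of 1 or 0.1 (mean FPKM 0.1 or more), GC and length offsets, the replicate number as a block, and each library left out. Simulated counts were used to test limma, DESeq2 and the edgeR fits (plain, GC offset and replicate block).

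The genes named were all members, the listed annexins, partners and receptors, the 3 other EF-hand genes and chromosome 1 neighbours with the smallest adjusted p in each direction, and the 3 genes that correlated best with S100A2. A listed partner included in the counts of its list is not reported here.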

Additional observations from a re-analysis of the deposited data

How the results depend on the processing

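The count of 5 lower members besides S100A2 was also 5 with DESeq2 on filtered or all genes, RLE factors, library totals and no filter, and 3 with limma on either FPKM scale, the GC offset and the length offset. With each library left out it was 4 to 6. The share of all genes called is given only for the main fit (16.9% lower, 19.1% higher) and the GC offset fit (8.46% lower, 6.21% higher). For the other fits the counts of members have no such share beside them, and nothing is read from their steadiness. No member was higher in any of these fits except with the GC offset, where 1 was (S100A14). Of 18 fits including the main one, S100A4, S100A10 and S100A11 passed in all 18, S100A6 and S100A16 in 12 each, S100A13 and S100A14 in 1 each and S100A3 in 0. With the length offset the log2 fold changes of S100A4, S100A10 and S100A11 were nearer to 0 than in the main fit, at -0.30, -0.43 and -0.29. With NC replicate 1 left out S100A6 had an edgeR adjusted p of 0.0502, without RBM47-OE replicate 2 S100A16 had 0.0502, and without RBM47-OE replicate 1 S100A13 passed at 0.0097. In the GC offset fits repeated without each library, which were added after the data were seen, S100A4 without NC replicate 2 had an edgeR adjusted p of 0.054, and S100A14 missed the threshold without NC replicate 1 (0.136), NC replicate 2 (0.145), NC replicate 3 (0.108) and RBM47-OE replicate 1 (0.080). S100A13 turned positive with the GC offset (0.024) and, in those repeats, was 0.043 when NC replicate 1 was left out, 0.035 for NC replicate 2 and 0.095 for RBM47-OE replicate 2, the lowest value being -0.0164. S100A14 turned negative without RBM47-OE replicate 1 (-0.047), and the other left-out libraries gave up to 0.0595. S100A2 ran from -0.83 to -0.59 over the 18 fits. In the added GC offset repeats it ran from -0.67 (without RBM47-OE replicate 3) to -0.49 (without RBM47-OE replicate 1). The causes were not tested.

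The deviations of same-numbered NC and RBM47-OE libraries from their group means correlated at -0.060, -0.015 and -0.016. These values gave no sign of pairing by replicate number, but they cannot exclude it. With the replicate block, 5 members besides S100A2 were lower and 0 higher, and with the replicate block and the GC offset 3 were lower, 0 were higher (S100A14 had an edgeR adjusted p of 0.062) and S100A13 was at 0.0205.

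The list counts moved more. With the GC offset, higher annexins went from 3 to 0, higher partners from 5 to 2, higher receptors from 1 to 0, and other EF-hand genes from 11 to 3 lower and 10 to 4 higher, with the same counts when the replicate block was added. Over all genes, the GC offset alone took the share called lower from 16.9% to 8.46% and the share called higher from 19.1% to 6.21%. Shares for the other fits are not given. With the length offset 3 partners were higher and 3 receptors lower. With library totals or limma 1 annexin was lower and 2 receptors were higher. Lower annexins were 1 without NC replicate 1, NC replicate 2 or RBM47-OE replicate 3, and higher annexins 1 without RBM47-OE replicate 3. Without RBM47-OE replicate 1, 8 partners were higher and 2 receptors lower, and without RBM47-OE replicate 3, 2 receptors were lower and 5 EF-hand genes higher. EF-hand genes were 7 lower without NC replicate 2 and 6 higher without NC replicate 1. S100P and IL1A had at most 19 counts in any library.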

Other observations

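Within 200 kb of the S100 run on chromosome 1, 8 tested genes were not S100 genes. Without the GC offset all 8 had a negative log2 fold change, as did 8129 of all 16260 genes tested. Their median was -0.16, and 3 were lower in edgeR's quasi-likelihood test (all genes: 16.9%). CHTOP, a chromatin protein that also takes part in mRNA export, fell by 0.24 (edgeR adjusted p = 0.0080), INTS3, an Integrator subunit, fell by 0.21 (edgeR adjusted p = 0.027), and the lncRNA RP1-178F15.5, which shares exonic bases with S100A13, fell by 0.44 (edgeR adjusted p = 0.045). With the GC offset CHTOP (-0.40, edgeR adjusted p = 3.0e-04) and ILF2 (-0.26, edgeR adjusted p = 0.0046), an RNA-binding protein, were lower (all genes: 8.46%), SLC27A3 was positive at 0.11, SNAPIN was at -0.0073, and the median was -0.14.

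The genes whose log2 CPM followed that of S100A2 most closely over the 6 libraries, among 14005 genes compared, were the chemokine gene CXCL8 (Pearson's r = 0.996), PIGW, an enzyme of GPI anchor synthesis (0.996), and EFHD1, an EF-hand protein of mitochondria (0.992). These libraries fall into 2 groups, so r mainly follows the difference between groups, and no p-value is attached. Among the members r with S100A2 was 0.879 for S100A10, 0.869 for S100A11, 0.850 for S100A3, 0.821 for S100A4, 0.773 for S100A6, 0.730 for S100A16, 0.538 for S100A13 and -0.295 for S100A14.

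Of 11 further S100 genes, 5 were analysed and 2 passed the filter. S100A5 had 36, 73 and 90 counts in NC and 62, 52 and 45 in RBM47-OE (log2 fold change -0.39, edgeR adjusted p = 0.25), and S100A1, which overlaps S100A13, had 29, 40 and 13 in NC and 20, 15 and 24 in RBM47-OE (-0.53, edgeR adjusted p = 0.30). S100A7, S100B and S100Z had at most 6 counts in any library. S100A8, S100A9 and S100A12, the members typical of myeloid cells, had no entry among the 28491 genes counted and so were not analysed. Of the 7 listed genes for fused-type S100 proteins of the epidermis, 3 were analysed and 1, TCHH, was tested, with 4 to 16 counts per library and a log2 fold change of 0.65 (edgeR adjusted p = 0.32). Of 7 tested epithelial markers 3 were lower (KRT8, KRT18 and CLDN7) and 1 higher (EPCAM), against 16.9% and 19.1% of all genes. With the GC offset EPCAM alone passed, as a higher gene, where 8.46% of all genes were lower and 6.21% higher.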
